A study of Mus musculus with 8 samples.

Results

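The immediate early genes of the EGR, NR4A and IER families were described in whole esophagus of healthy MGL KO and WT mice. They were taken from the deposited table as the 10 gene symbols Egr1, Egr2, Egr3, Nr4a1, Nr4a2, Nr4a3, Ier2, Ier3, Ier5 and Srf, out of 32849 symbols listed, of which 22721 had at least 1 count. All 10 passed the filter on low counts, which left 14864 genes for testing. On GRCm39 they lie on chromosomes 18 (Egr1), 10 (Egr2), 14 (Egr3), 15 (Nr4a1), 2 (Nr4a2), 4 (Nr4a3), 8 (Ier2), 17 (Ier3 and Srf) and 1 (Ier5), among them Srf at chr17:46857767-46867119, Nr4a1 at chr15:101151980-101172681 and Nr4a3 at chr4:48045153-48086447. RNA came from 4 samples of frozen esophagus of MGL KO and 4 of WT mice, was selected for poly(A) tails and sequenced, with 1 library per sample. MGL, monoacylglycerol lipase, breaks down the endocannabinoid 2-arachidonoylglycerol, and the KO is a deletion in the whole animal, bred in-house with WT littermates, so that it is not limited to the epithelium. Neither group received a treatment, and the labels give no age or sex for a library. The labels number the samples within a genotype without tying them to separate animals in words, so p-values measure the spread between these libraries.

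Immediate early genes are transcribed within minutes of a stimulus from factors that are already present in the cell, without new protein synthesis. Growth factors, stretch and stress reach many of them through MAP kinases and serum response factor (Srf), which binds the CArG box of DNA together with ternary complex factors of the ELK family or with the actin-regulated cofactors of the MRTF family, while cyclic AMP and calcium act through CREB at the cyclic AMP response element. The EGR proteins are zinc finger transcription factors, the NR4A proteins are orphan nuclear receptors, and the IER proteins share their rapid induction rather than one molecular role. In the esophagus such genes can be read in squamous epithelium, smooth muscle and striated muscle alike, and in bulk tissue fewer cells of a type and less RNA per cell cannot be told apart.

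Promoter sequences were shown to place Srf beside the regulatory sites that the families are known for. RefSeq windows of build GRCm38.p6 were found for 7 of the 10 genes. Egr1, Egr3 and Ier2 had no window and were not searched, so nothing is said of their promoters. The 250 bases before the start site were searched on both strands for the CArG box and for the core TGACG of the cyclic AMP response element. The CArG box was found in 1.47% and TGACG in 17.8% of the 32851 windows of this length in the table. Among the 7 genes, 2 held a CArG box (Srf and Egr2) and 5 held TGACG (Srf, Egr2, Nr4a1, Nr4a2 and Nr4a3). The windows of Srf (chr17:46556163-46556412, reverse strand), Nr4a1 (chr15:101266596-101266845, forward strand) and Nr4a3 (chr4:48045055-48045304, forward strand) are given 5′ to 3′, because Srf and Nr4a3 were the 2 genes whose genotypes did not overlap and Nr4a1 is the most abundant NR4A receptor here. Of all genes tested, 6.02% did not overlap in one direction or the other, and a link between motifs and genotype was not tested. Capitals mark CArG boxes and TGACG or its reverse complement CGTCA.
Srf: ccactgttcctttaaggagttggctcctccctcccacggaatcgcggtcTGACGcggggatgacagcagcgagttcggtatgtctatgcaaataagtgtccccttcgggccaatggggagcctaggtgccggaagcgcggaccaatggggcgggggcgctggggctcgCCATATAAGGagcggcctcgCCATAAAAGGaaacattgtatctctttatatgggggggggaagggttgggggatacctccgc
Nr4a1: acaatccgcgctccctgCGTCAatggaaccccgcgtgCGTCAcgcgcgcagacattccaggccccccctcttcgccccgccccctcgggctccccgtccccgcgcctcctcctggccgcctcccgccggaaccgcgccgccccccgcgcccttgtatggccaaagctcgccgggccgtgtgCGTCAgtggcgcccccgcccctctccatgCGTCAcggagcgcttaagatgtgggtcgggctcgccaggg
Nr4a3: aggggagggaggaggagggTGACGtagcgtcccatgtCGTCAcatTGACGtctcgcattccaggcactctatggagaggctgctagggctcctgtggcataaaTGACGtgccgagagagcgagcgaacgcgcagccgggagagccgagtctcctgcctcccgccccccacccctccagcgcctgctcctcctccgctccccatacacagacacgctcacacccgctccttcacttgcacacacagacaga
The Srf window held 2 CArG boxes, from 82 to 73 and from 62 to 53 bases before the start site. Nr4a1 and Nr4a3 held 4 such cores and no CArG box each. Egr2 has 5 start sites in the table, and 4 of their windows held a CArG box, CCATATATGG in 3 of them, which overlap and share that single site, and CCTTTTTTGG in the other. The shares over the table are per window, whereas the counts here are per gene, and a gene with several windows such as Egr2 has more chances to hold a match. These matches describe letters in the windows and were not tested as sites.

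Libraries held 13479069 to 17090152 counts, and an upper limit of 3 counts for a gene at 0 corresponds to 0.167 to 0.271 normalized CPM, the count relative to the scaled library size. This limit covers counting error only. Mgll, the targeted gene, was at 13.7 ± 1.54 normalized CPM in MGL KO and 81.2 ± 9.97 in WT esophagi (SD, n = 4 each), with every MGL KO library below every WT library. Markers of squamous epithelium, skeletal muscle and smooth muscle were present in all libraries, the 7 basal squamous genes summing to between 2976 and 5569 normalized CPM, the 12 skeletal muscle genes to between 39399 and 94291 and the 6 smooth muscle genes to between 6421 and 15090. Most of the smooth muscle sum was Des, at 4674 to 11885, highest in MGL KO replicate 2 and lowest in MGL KO replicate 4, as was the skeletal muscle sum. Lmod1, Synpo2 and Hspb6 were also highest in MGL KO replicate 2, whereas Myh11 and Smtn were highest in WT replicates 4 and 3. The sum is therefore not a measure of smooth muscle alone. MGL KO replicate 4 stood apart with 672 normalized CPM over 8 airway ciliated genes, against 10.1 to 20.3 in the other MGL KO and 11.1 to 17.5 in the WT libraries. Skeletal muscle genes were highest in MGL KO replicate 2 (94291) and WT replicate 3 (81015), and lowest in MGL KO replicate 4 (39399). The 9 macrophage and neutrophil genes summed to between 135.9 and 169.4 normalized CPM in MGL KO and between 160.7 and 485.0 in WT, with the neutrophil marker Ly6g at 0 in 7 of the 8 libraries. Of the 8 macrophage and neutrophil genes tested, 7 had a log2 fold change below 0 and 6 of these had an unadjusted p under 0.05, where 4.29% of all genes were lower at that p, with 0 called and a median of -0.84. WT replicate 1 held the highest sum, at 485.0, and the other WT libraries lay between 160.7 and 283.1. The 6 endothelial genes all had a log2 fold change below 0, with 0 called. The part of the immune, endothelial and ciliated signal in the values that follow was not tested.

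All 10 immediate early genes had a higher fitted level in MGL KO than in WT esophagi, by between 0.14 and 0.87 on the log2 scale, yet none of them passed an adjusted p of 0.05. The median log2 fold change over the 10 genes was 0.38, against 0.02 over all genes tested, of which 53.0% had a log2 fold change above 0. The quasi-likelihood F test of edgeR, whose p-values were adjusted over all genes by the Benjamini-Hochberg method and are the ones given unless another test is named, called 0 of the 10 genes and 0.0471% of all genes, 0.0202% as higher and 0.0269% as lower. Before adjustment, 5 of the 10 were higher at p under 0.05 (Nr4a3, Ier3, Nr4a1, Srf and Egr1), compared with 4.35% of all genes that were higher, 4.29% that were lower and 8.65% in either direction. The exact test on filtered genes, DESeq2 and limma-voom with quality weights also called 0 of the 10, with Nr4a3 nearest at adjusted p-values of 0.235, 0.131 and 0.220, and they called 0.437%, 0.922% and 0.168% of all genes, of which 0.283%, 0.531% and 0.135% were higher. Run without the filter, the exact test called 0.185% of genes, 0.132% as higher, and the skeletal muscle covariate gave 0.195%, with 0 of the 10 again. With other scaling and filters the background was 0.0404% (library size alone), 0.0088% (no filter) and 0.0523% (at least 10 counts in every library), and it was 0.0135% for the robust fit, for the replicate number as a block and at an adjusted p under 0.01, and 0.0875% at an adjusted p under 0.1. Leaving out MGL KO replicates 1 to 4 in turn gave 0.0265%, 0.0199%, 0.0133% and 0.0133%, and leaving out WT replicates 1 to 4 gave 0.0134%, 0.0133%, 0.0133% and 0.0332%. The number called among the 10 was 0 in each. For Nr4a3 and Srf, 2 of the 10 genes, the MGL KO libraries were all higher than the WT libraries, as for 2.72% of all genes, and 6.02% of all genes were separated in one direction or the other. Without MGL KO replicate 4, 8 of the 10 were higher, 4 had an unadjusted p under 0.05 against 4.30% of all genes, and the median was 0.44. Without MGL KO replicate 1, 10 were higher and 2 had an unadjusted p under 0.05, against 4.24% of all genes, whereas without MGL KO replicate 2 the number was 7, against 5.31%. It was 3 without WT replicate 1, against 3.51%, 2 without WT replicate 2, against 2.56%, and 2 with the replicate number as a block, against 2.05%.

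**Figure D1:**
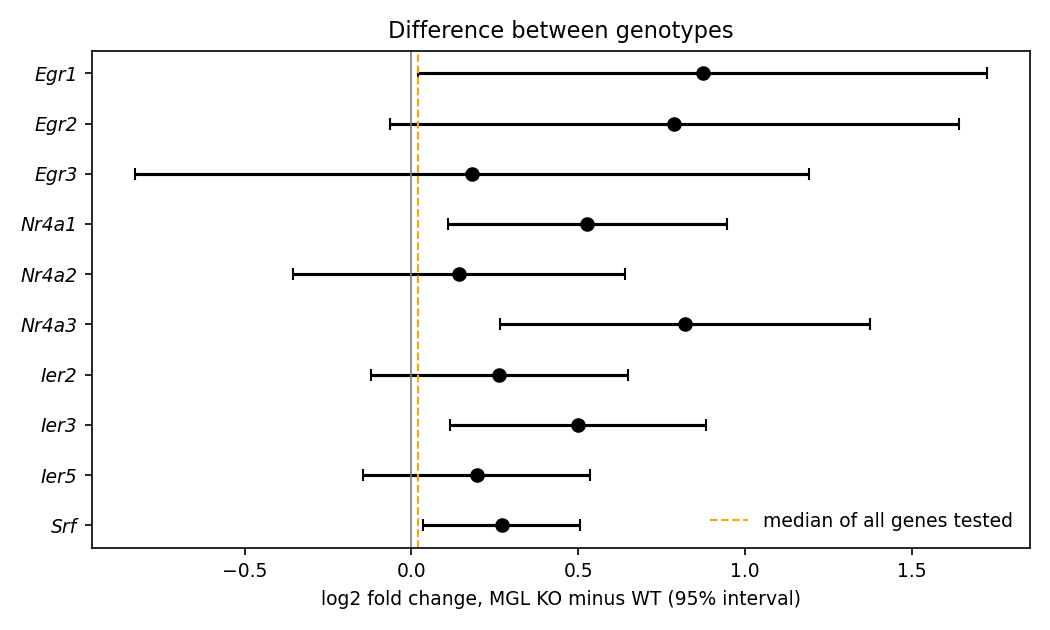
Log2 fold change of MGL KO minus WT (horizontal axis) for each of the 10 genes (vertical axis), with 95% intervals from the SE of edgeR's fit. The points lie between 0.14 (Nr4a2) and 0.87 (Egr1), to the right of the median of all genes tested (dashed line, 0.02), and the intervals of Egr2, Egr3, Nr4a2, Ier2 and Ier5 include 0.

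Srf encodes the transcription factor that many immediate early promoters share, and it varied least of the 10 genes among the MGL KO libraries, with a coefficient of variation of 8.83%. It was at 142.8, 162.4, 157.7 and 133.9 normalized CPM in MGL KO replicates 1 to 4 and at 111.2, 125.4, 124.7 and 133.3 in WT replicates 1 to 4. The lowest MGL KO library was thus just above the highest WT library, and the groups did not overlap. The means were 149.2 ± 13.2 in MGL KO and 123.6 ± 9.16 in WT (SD, n = 4 each). Srf differed by a log2 fold change of 0.27 (standard error, SE, 0.10; adjusted p = 0.542), and the 95% interval ran from 0.04 to 0.51. Leaving out each library in turn gave values from 0.22 to 0.32.

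Egr1, the most abundant of the EGR genes and a classic read-out of MAP kinase signaling, had the largest fitted difference of the 10 genes. It also had the widest spread among MGL KO libraries relative to the mean. Its normalized CPM were 69.0, 21.0, 20.3 and 42.8 in MGL KO replicates 1 to 4, and 18.2, 25.3, 18.0 and 22.2 in WT replicates 1 to 4. MGL KO replicates 1 and 4 were above all WT libraries, whereas replicates 2 and 3 lay inside the WT range. The means were 38.3 ± 23.0 in MGL KO and 20.9 ± 3.50 in WT (SD, n = 4 each), a coefficient of variation of 60.1% against 16.7%. Egr1 differed by 0.87 on the log2 scale (SE 0.38, adjusted p = 0.578). It was 0.43 without MGL KO replicate 1, which held the highest Egr1, and 0.82 without replicate 4.

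Egr2, a regulator of myelination in Schwann cells, was expressed at a low level, with 13 to 69 counts per library. It was at 3.18, 1.90, 2.65 and 3.88 normalized CPM in MGL KO replicates 1 to 4 and at 2.34, 1.31, 0.85 and 2.22 in WT replicates 1 to 4. In 3 MGL KO libraries Egr2 exceeded every WT library, and replicate 2 did not. The log2 fold change of 0.79 (SE 0.38) was close in size to that of Egr1 (adjusted p = 0.609).

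Egr3, which is needed for the formation of muscle spindles, overlapped between the genotypes over most of its range. The MGL KO libraries were at 3.00, 1.26, 3.27 and 4.10 normalized CPM, and the WT libraries at 4.46, 2.63, 1.45 and 1.76. The highest value was in WT replicate 1 and the lowest in MGL KO replicate 2. Its log2 difference of 0.18 (adjusted p = 0.916) had a 95% interval from -0.83 to 1.19, which leaves its direction unresolved. The value was -0.03 without MGL KO replicate 4 and -0.01 without WT replicate 3. Per kb of exon, Egr1 made up 71.2% to 87.8% of the summed EGR level in WT and 75.4% to 90.7% in MGL KO libraries, the highest share being in MGL KO replicate 1.

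Nr4a1, which encodes the orphan receptor Nur77, was the most abundant of its family. It was at 130.9, 120.9, 78.6 and 87.5 normalized CPM in MGL KO replicates 1 to 4 and at 63.7, 66.7, 88.9 and 70.5 in WT replicates 1 to 4. MGL KO replicates 1 and 2 were above all WT libraries, and WT replicate 3 was above MGL KO replicates 3 and 4. The means were 104.5 ± 25.4 and 72.4 ± 11.3 (SD, n = 4 each), and the log2 difference was 0.53 (SE 0.19, adjusted p = 0.512). The Nr4a1 locus overlaps 3 other annotated genes, Egr2, Nr4a3, Ier3 and Ier5 overlap 1 each and Srf overlaps 2. These are overlaps of whole gene spans, and whether exons or reads were shared was not tested. Any shared reads could not be assigned with certainty, on the same strand in any case (Ier5, and in part Nr4a1 and Srf) and on the opposite strand where strand was not used in counting.

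Nr4a3, the gene of the receptor Nor1, had the lowest p of the 10 genes, ranking 257th of 14864. Its normalized CPM were 16.8, 36.2, 18.3 and 21.9 in MGL KO replicates 1 to 4, and 14.1, 10.8, 14.6 and 13.1 in WT replicates 1 to 4. Every MGL KO library was above every WT library, and replicate 2 was far above the other MGL KO libraries. The means were 23.3 ± 8.87 in MGL KO and 13.2 ± 1.66 in WT (SD, n = 4 each). The log2 difference was 0.82 (SE 0.24, 95% interval from 0.27 to 1.37), and edgeR's p was 0.478 after and 0.00860 before adjustment. Without MGL KO replicate 2 it was 0.53.

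Nr4a2, the gene of Nurr1, known for its role in dopamine neurons, was low and overlapped between the genotypes. The MGL KO libraries lay at 5.88, 4.51, 4.50 and 7.42 normalized CPM and the WT libraries at 4.85, 5.37, 4.67 and 5.35. The lowest values and the highest value were all from MGL KO. The log2 fold change of 0.14 (95% interval from -0.36 to 0.64, adjusted p = 0.854) was -0.02 without MGL KO replicate 4. Per kb of exon, Nr4a3 supplied 21.1% to 26.7% of the summed NR4A level in WT and 18.0% to 34.2% in MGL KO libraries, the highest share being in replicate 2. These shares depend on the length of all annotated exons, 10.9 kb for Nr4a1 against 5.99 kb for Nr4a3, which lowers Nr4a1 more.

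**Figure D2:**
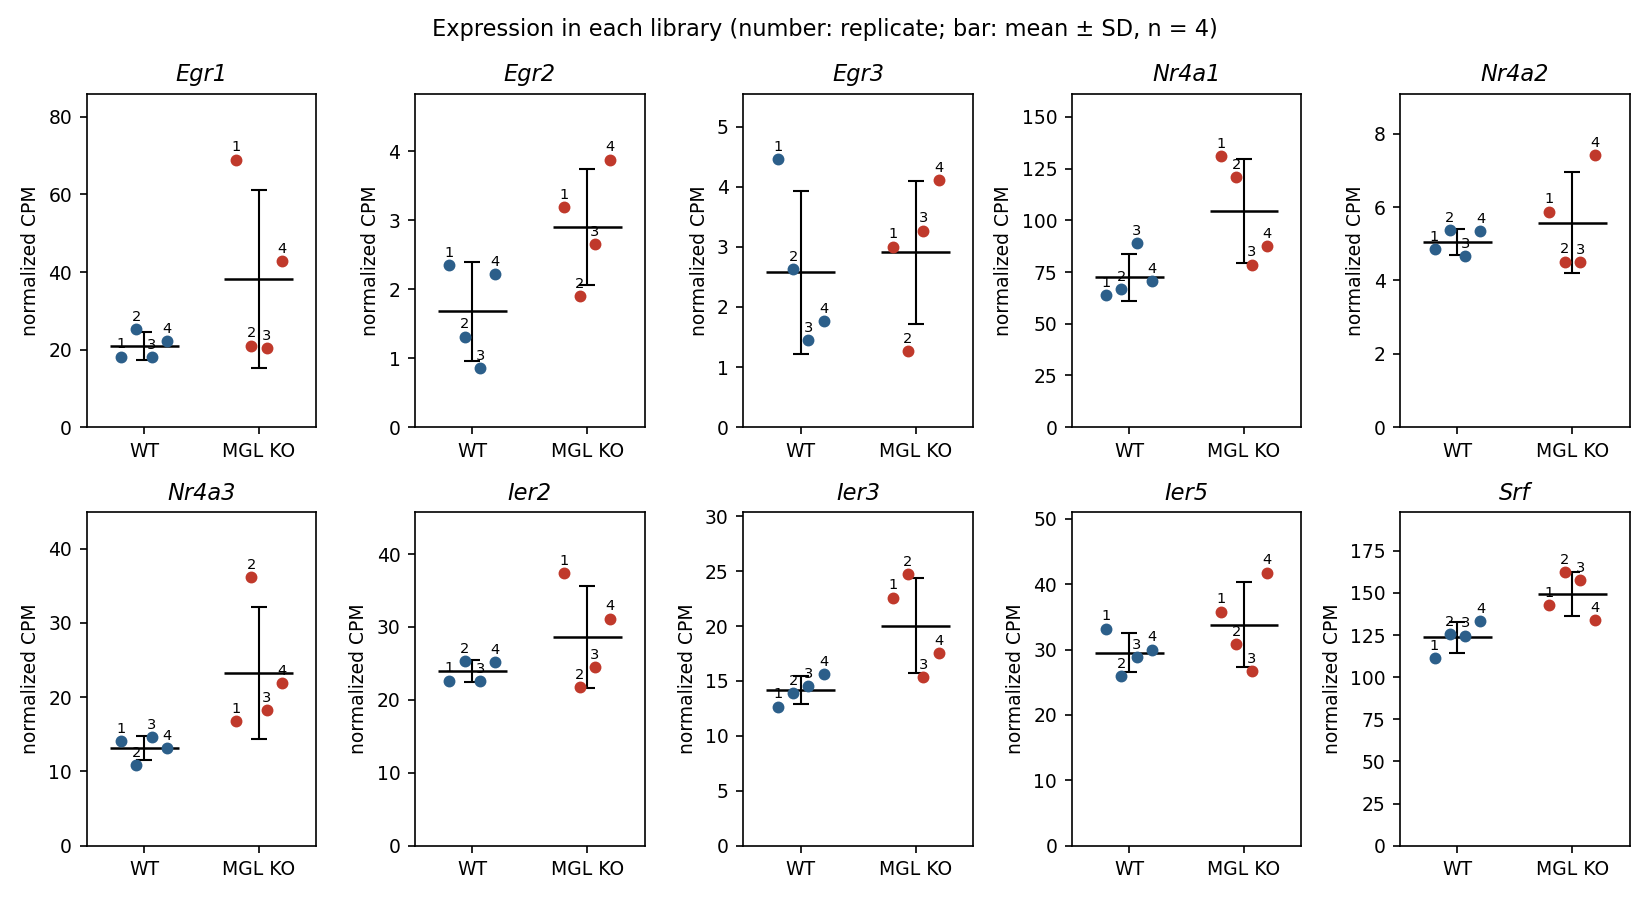
Normalized CPM (vertical axes, each from 0) of the 10 genes in each WT (blue) and MGL KO (red) library, with the replicate number at each point and the mean ± SD (n = 4) in black. The genotypes are separate for Nr4a3 and Srf, while Egr1 is highest in MGL KO replicates 1 and 4, at 69.0 and 42.8.

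Of the IER genes, Ier3, whose product limits cell death and modulates ERK signaling, differed most between the genotypes. It was at 22.6, 24.7, 15.4 and 17.5 normalized CPM in MGL KO replicates 1 to 4 and at 12.7, 13.9, 14.5 and 15.6 in WT replicates 1 to 4. The only overlap was between MGL KO replicate 3 and WT replicate 4. The means were 20.1 ± 4.35 and 14.2 ± 1.25 (SD, n = 4 each), and the log2 fold change was 0.50 (SE 0.17, adjusted p = 0.507).

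Ier2, a small nuclear protein gene, was at 37.4, 21.7, 24.5 and 31.1 normalized CPM in MGL KO replicates 1 to 4 and at 22.6, 25.3, 22.6 and 25.2 in WT replicates 1 to 4. As for Egr1, MGL KO replicates 1 and 4 were above the WT libraries, and replicates 2 and 3 were not. Its log2 difference was 0.26 (95% interval from -0.12 to 0.65, adjusted p = 0.680) and dropped to 0.11 without MGL KO replicate 1.

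Ier5, a regulator of heat shock factor 1, was at 35.8, 30.9, 26.7 and 41.8 normalized CPM in MGL KO replicates 1 to 4 and at 33.2, 26.0, 28.9 and 30.0 in WT replicates 1 to 4. The same 2 MGL KO libraries were highest, and the groups overlapped. Its log2 difference was 0.20 (95% interval from -0.14 to 0.54, adjusted p = 0.718) and was 0.08 without MGL KO replicate 4.

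The 10 genes did not follow one pattern among the MGL KO libraries. MGL KO replicate 1 exceeded every WT library for 9 of the 10 genes and replicate 4 for 8, but replicate 2 for 4 and replicate 3 for 3. Over all genes tested, the shares above every WT library were 20%, 33.4%, 17.5% and 26.2% in MGL KO replicates 1, 2, 3 and 4. MGL KO replicate 2 was below every WT library for 3 of the 10 genes (Egr3, Nr4a2 and Ier2) and replicate 3 for 1 (Nr4a2), where 35.1% and 19.1% of all genes were. Egr1, Nr4a2, Ier2 and Ier5 were highest in replicates 1 and 4, whereas Nr4a1 and Ier3 were highest in replicates 1 and 2, and Nr4a3 and Srf in replicate 2. Likeness was measured as the mean absolute difference between log2 CPM profiles, each centred on its mean over the 8 libraries. The closest pair was Nr4a1 with Ier3 (0.11), followed by Nr4a2 with Ier5 (0.12) and Nr4a2 with Ier2 (0.13), so that the closest pairs crossed the families, and the farthest was Egr3 with Nr4a1 (0.70). MGL KO replicate 2, with the highest Nr4a3, Ier3 and Srf, also had the highest skeletal muscle sum and, at 2156 normalized CPM, the lowest sum of 8 differentiated squamous genes. With the mean level of the skeletal muscle genes as a covariate, the log2 fold changes were 0.84 for Nr4a3, 0.57 for Nr4a1, 0.52 for Ier3, 0.29 for Srf and 0.71 for Egr1, with adjusted p-values of 0.157, 0.201, 0.205, 0.177 and 0.337. For the remaining genes the values were 0.68 for Egr2, 0.21 for Ier2, 0.15 for Ier5, 0.07 for Nr4a2 and 0.03 for Egr3, compared with 0.14 for Nr4a2 and 0.18 for Egr3 without the covariate.

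**Figure D3:**
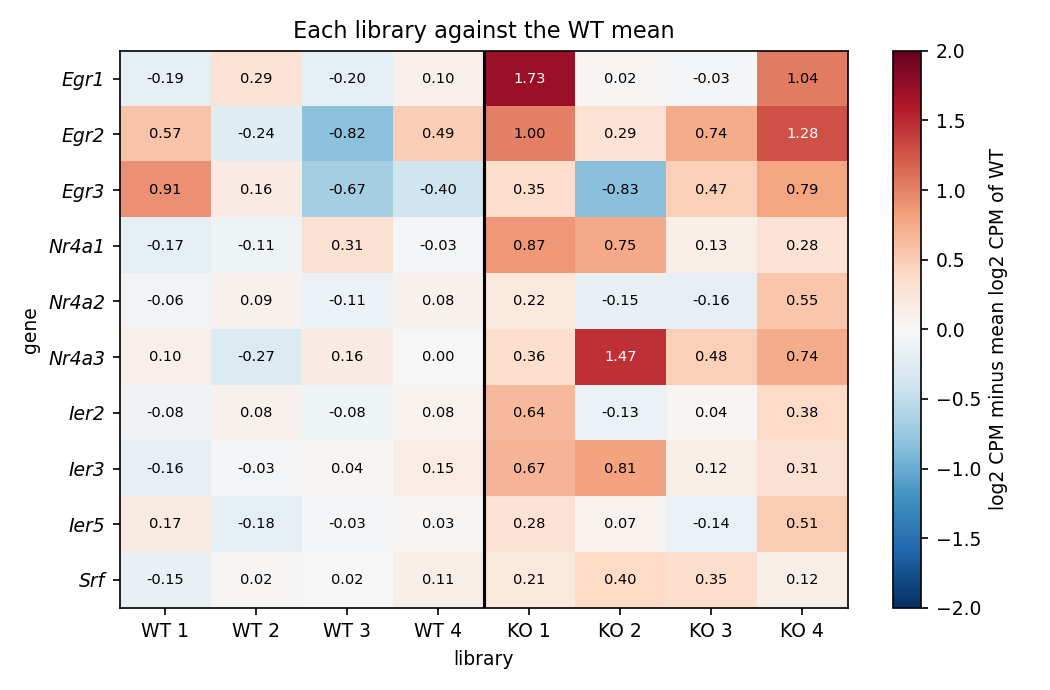
Log2 CPM of each gene (rows) in each library (columns) minus its mean over the WT libraries, with red above and blue below the WT mean. Egr1 stands at 1.73 in MGL KO replicate 1 and Nr4a3 at 1.47 in MGL KO replicate 2, while MGL KO replicate 3 is near the WT mean for Egr1, Ier2 and Ier3.

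The coefficient of variation was larger among MGL KO than among WT libraries for 8 of the 10 genes, all but Egr2 and Egr3, and for 70.1% of all genes tested. The median coefficient of variation of the 10 genes was 24.6% in MGL KO and 11.4% in WT, against 21.3% and 14.7% over all genes tested. The biological variation estimated by edgeR was above the trend of genes of like expression for 1 of the 10, Egr1, at 0.38 against 0.23, and for 23.7% of all genes.

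Levels were compared between genes as normalized CPM per kb of exon, with exon lengths from GENCODE on GRCm39. In WT esophagi, Srf was highest at 28.0 ± 2.08, followed by Ier2 (15.7 ± 1.00), Ier3 (12.4 ± 1.10), Ier5 (9.01 ± 0.91), Nr4a1 (6.64 ± 1.04), Egr1 (4.65 ± 0.78) and Nr4a3 (2.20 ± 0.28; SD, n = 4). The WT libraries of neighbours in this order did not overlap, except for Ier5 with Nr4a1. Nr4a2 (0.62 ± 0.04), Egr3 (0.55 ± 0.29) and Egr2 (0.49 ± 0.21) followed and overlapped each other. By the means of the MGL KO libraries the first 7 places were the same, but here Ier2 overlapped with Ier3, Ier5 with Nr4a1, Nr4a1 with Egr1 and Egr1 with Nr4a3, and Egr2 (0.85 ± 0.25) was ahead of Nr4a2 (0.68 ± 0.17) and Egr3 (0.62 ± 0.25) within their overlap. These lengths count every annotated exon of a gene, which lowers the value of a gene with many transcripts such as Nr4a1.

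**Figure D4:**
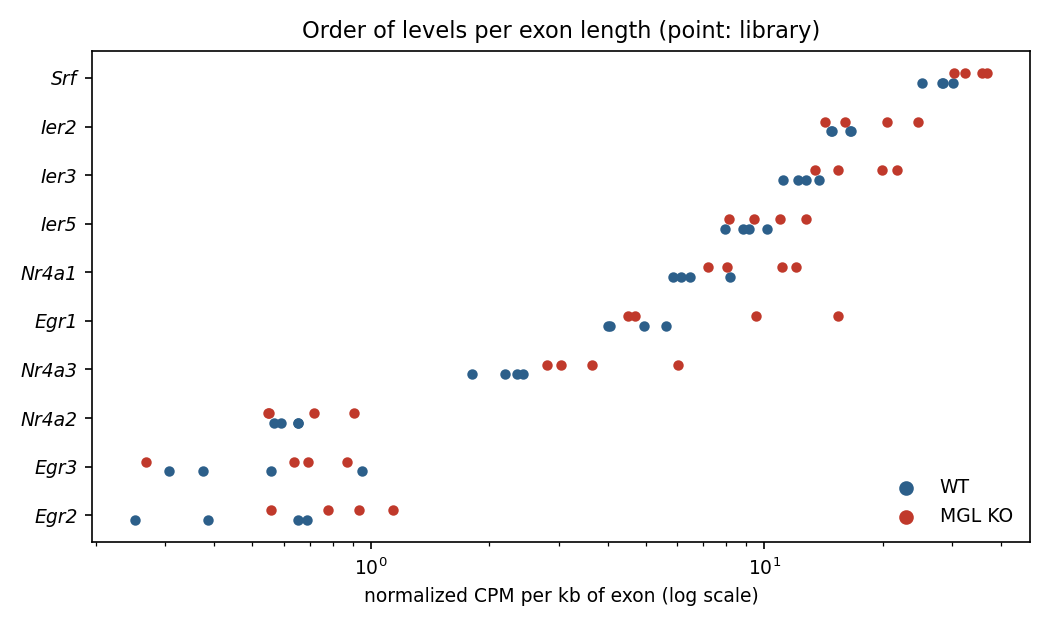
Normalized CPM per kb of exon on a log scale (horizontal axis) for each gene (vertical axis), with 1 point per library in WT (blue) and MGL KO (red). Srf is the highest, with WT libraries between 25.2 and 30.2, and Nr4a2, Egr3 and Egr2 lie mostly below 1 CPM per kb.

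Genes outside the families with the most similar profiles over the 8 libraries were named by the same measure of likeness. For Egr1 they were Tppp (0.22), Hspa1b (0.23) and Marchf9 (0.25), for Nr4a1 Esrrg (0.09), Palmd (0.10) and Cdkn2aip (0.11), for Ier2 Dpyd (0.06), Abcd3 (0.09) and Susd6 (0.10), and for Srf Spata2 (0.04), Mgat4b (0.05) and Vta1 (0.05). Hspa1b, a heat shock protein gene, was at 64.9 normalized CPM on average in MGL KO and 33.0 in WT. None of these 12 genes passed the threshold, which 0.0471% of all genes passed. They were picked for likeness over all 8 libraries to genes that were not called. Neither their lack of calls nor the Hspa1b means are therefore a separate result.

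Among 37 other immediate early genes, 35 were tested, and 2 passed the threshold, both higher in MGL KO, where 0.0471% of all genes passed it and 0.0202% were called higher. These were Dusp1, a phosphatase of MAP kinases, and Ccn1, a secreted matrix protein, with log2 fold changes of 1.80 (SE 0.21, adjusted p = 0.0494) and 1.59 (SE 0.18, adjusted p = 0.0494). With 1 library left out, 0 or 1 of the 35 genes were called, and 0 were called without the filter on low counts, in the robust fit and with the replicate block. The exact test on filtered genes called 7 and DESeq2 called 12, all higher, where they called 0.283% and 0.531% of all genes as higher. By the quasi-likelihood test before adjustment, 18 of the 35 were higher and 2 lower at p under 0.05, against 4.35% and 4.29% of all genes. Every MGL KO library was above every WT library for 14 of the 35 and below for 1, against 2.72% and 3.30% of all genes. The largest fitted differences were those of the AP-1 genes Fos (2.73, SE 0.52, adjusted p = 0.238) and Fosb (2.67, SE 0.77, adjusted p = 0.478). MGL KO replicate 1 held 15.4 normalized CPM of Fosb where replicates 2 to 4 held 2.53, 1.48 and 2.42, and without replicate 1 its log2 fold change was 1.32. MGL KO replicate 1 was the highest library for Fos, Fosb, Dusp1 and Ccn1, as it was for Egr1, Nr4a1 and Ier2. The median log2 fold change of the 35 genes was 0.49, with 27 above 0 and 8 below, compared with 53.0% of all genes above 0. Dusp1, Ccn1 and Fos are genes that the study picked from these libraries, so that their direction here is no independent evidence. The 10 genes of the EGR, NR4A and IER families and Srf reached at most 0.87 on this scale.

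The 22 regulators and partners comprised MAP kinases, ELK factors, MRTF and CREB cofactors, the NAB corepressors of EGR proteins and the RXR partners of NR4A receptors. By edgeR's quasi-likelihood, exact, DESeq2 and limma-voom testing, 0 of them were called, and before adjustment 1 was higher and 2 were lower at p under 0.05, compared with 4.35% higher and 4.29% lower among all genes. Their median log2 fold change was 0.02, the same as that of all genes tested. Mrtfa, the actin-regulated cofactor of Srf, was at 30.9, 36.1, 41.1 and 32.1 normalized CPM in MGL KO replicates 1 to 4 and at 45.9, 46.7, 42.4 and 54.8 in WT replicates 1 to 4. Every MGL KO library was thus below every WT library for Mrtfa, as for 3.30% of all genes. Mrtfa differed by -0.44 on the log2 scale (SE 0.12, adjusted p = 0.478). Myocd, the muscle cofactor of Srf, had a log2 fold change of 0.86 (SE 0.43, adjusted p = 0.623) with its highest level, 5.51 normalized CPM, in MGL KO replicate 4, and without that library the value was 0.35. Elk3 (-0.27, adjusted p = 0.688) and Rxra (0.23, adjusted p = 0.602) followed in size, and Elk3 was at -0.13 without WT replicate 1. Rxra lay between 205.5 and 224.3 normalized CPM in MGL KO and between 153.4 and 200.5 in WT, without overlap. Of the 22 genes, 2 had every MGL KO library above and 2 every MGL KO library below the WT libraries, where 2.72% and 3.30% of all genes did.

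The 15 cytoskeletal genes, which Srf controls with its actin-regulated cofactors, had a median log2 fold change of 0.08, and 0 passed the threshold by any of these tests. At an unadjusted p of 0.05, 1 of the 15 was higher and 0 were lower, against the same 4.35% and 4.29%. Those with the largest size were Tagln (-0.55, adjusted p = 0.717), Filip1l (0.39, adjusted p = 0.478), Tpm2 (0.28, adjusted p = 0.823) and Tpm1 (0.23, adjusted p = 0.848). Without MGL KO replicate 2 the direction of the tropomyosin genes turned, to -0.12 for Tpm2 and -0.15 for Tpm1, and Tagln was at -0.97 without MGL KO replicate 4. Tagln had only 4 to 17 counts per library, so its place by size rests on few reads. Tpm1 and Tpm2 made up 70.3% to 89.7% of the summed level of the 15 genes, most in MGL KO replicate 2. The other 13 genes summed to between 2826 and 3856 normalized CPM in MGL KO, lowest in replicate 2, and to between 2672 and 3813 in WT libraries. Srf differed by 0.29 on the log2 scale with the skeletal muscle covariate and by 0.27 without it.

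**Figure D5:**
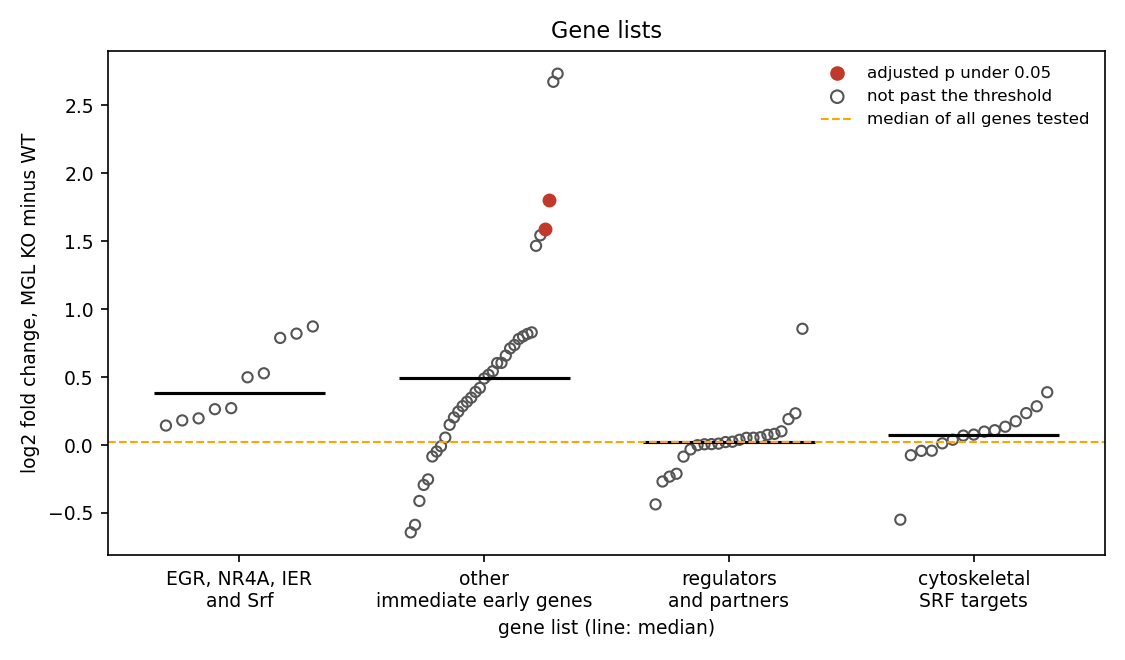
Log2 fold change of MGL KO minus WT (vertical axis) of each tested gene in 4 lists (horizontal axis), ordered by size within a list, with the median as a line, called genes filled in red and the median of all genes tested dashed. The medians are 0.38 for the EGR, NR4A and IER genes with Srf, 0.49 for the other immediate early genes, 0.02 for regulators and partners and 0.08 for cytoskeletal Srf targets, and the 2 filled points are Ccn1 and Dusp1.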

How the data were processed

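RNA of frozen mouse esophagus was sequenced after poly(A) selection. The authors checked reads with FastQC (0.11.9), trimmed them with cutadapt, aligned them with STAR (2.7.10b) to GRCm39 and deposited raw counts per gene symbol; the annotation, the counting tool and its use of strand are not given in the sources used here. Reads of overlapping genes may therefore be split or lost. Groups were taken from the sample titles. All value columns were mapped to samples.

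Genes were kept by filterByExpr at a minimum count of 10 (edgeR 4.0.16, R 4.3.3), library sizes were scaled by TMM factors (0.82 to 1.11), and the genotypes were tested with glmQLFit and glmQLFTest of edgeR (quasi-likelihood), p-values being adjusted over all 14864 genes by the Benjamini-Hochberg method at 0.05. Normalized CPM were the counts divided by the scaled library sizes. Standard errors were the log2 fold change divided by the root of the F statistic, and 95% intervals used the degrees of freedom of the test. Log2 CPM in profiles used a prior count of 1.

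The 10 genes and the gene lists were chosen with earlier results of these data known. The text names all 10, the called genes and up to 4 genes with the largest fold changes of each other list, and the 3 genes with the most similar profile to Egr1, Nr4a1, Ier2 and Srf. Gene lengths and overlaps came from GENCODE vM39 on GRCm39, the build named by the authors. The study's methods name the exact test of edgeR, run here as an alternative on filtered genes and on every gene with a count, along with DESeq2 (1.42.0), limma-voom (3.58.1) with quality weights, a robust fit, scaling by RLE, upper quartiles or library size, other filters and thresholds, a skeletal muscle covariate, the replicate number as a block and leaving out each library.

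No replicate pair agreed within sampling noise (chi-square per degree of freedom of at least 13.6). The scripts were tested on simulated data for 14717 genes of MGL KO against WT, where the quasi-likelihood test recovered 58% of genes changed by 1 and 97% of those changed by 2 on the log2 scale. Changes were placed only in genes with higher mean counts than those of Egr2, Egr3 and Nr4a2, and none was smaller than 1. The 10 genes differed by 0.14 to 0.87, so these shares do not give the recovery of differences of their size.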

Additional observations from a re-analysis of the deposited data

Results flagged for a closer look

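Of 44 groups of 4 values compared, 3 had a library far from the other 3 by Dixon's criterion, which chance alone passes in about 1 in 20 groups. None of the 10 immediate early genes was among them in either genotype. The 8 airway ciliated genes summed to 672 normalized CPM in MGL KO replicate 4, compared with no more than 20.3 in MGL KO replicates 1 to 3. This library was the highest for Egr2, Nr4a2 and Ier5, and the part of the ciliated signal in these values was not tested. In WT replicate 3, the 7 basal squamous genes summed to 3270 normalized CPM, against at least 4757 in the other WT libraries, and the 22 regulators and partners summed to 1272, against at least 1365. WT replicate 3 was the lowest library for Egr1 and Egr2.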

How the results depend on the processing

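Of 200 values of the 10 genes under the alternatives, 197 kept their direction and stayed above an adjusted p of 0.05, and 3 reversed. With 1 library left out, Egr3 ranged from -0.026 (without MGL KO replicate 4) to 0.59 and was -0.01 without WT replicate 3, and Nr4a2 ranged from -0.025 (without MGL KO replicate 4) to 0.23 on the log2 scale. The number of EGR, NR4A and IER genes and Srf called was 0 in every setting run, with lowest adjusted p-values between 0.131 (DESeq2) and 0.923 (replicate block). Their median log2 fold change lay between 0.34 and 0.41 with all libraries and between 0.35 and 0.47 with 1 library left out.

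The count of 7 genes called among all genes, 3 of them higher, was 2 without a filter, in the robust fit, with the replicate block and at an adjusted p under 0.01, 13 at an adjusted p under 0.1, 25 with limma-voom, 29 with the skeletal muscle covariate, 42 and 65 by the exact test without and with the filter and 137 with DESeq2. It was 2 to 5 with 1 library left out. With library size alone, 5 of 6 calls were higher, and a filter of 10 or more counts in each library gave 4 of 7. Of the other immediate early genes, 2 were called, against 0 without a filter, in the robust fit, with the replicate block and under 0.01, 4 with limma-voom and with the skeletal muscle covariate, 6 and 7 by the exact test without and with the filter and 12 with DESeq2, and it was 0 to 1 in the fits lacking 1 library. The cause was not tested. A stricter threshold lowers a count by construction. Leaving out each library was added for named genes of the other lists after seeing the data. Tpm2 then ranged from -0.12 to 0.54 and Tpm1 from -0.15 to 0.47, both lowest without MGL KO replicate 2, Dusp1 ranged from 1.56 to 1.91 and was called in 1 of 8 fits, and Ccn1 ranged from 1.48 to 1.69 and was called in 0. Regulators and partners and cytoskeletal genes gave 0 calls in every setting. For the replicate block, the centred profiles of MGL KO and WT libraries with equal numbers had correlations of -0.14, -0.28, -0.14 and 0.08, and the numbers were not taken as pairs. Egr2 and Egr3, with 13 to 80 counts per library, have the fewest reads behind their values.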

Other observations

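Relatives and partners of the families were singled out here after their values were seen. Ier5l, the paralog of Ier5, was at 5.51, 8.66, 6.41 and 8.66 normalized CPM in MGL KO replicates 1 to 4 and at 10.8, 10.6, 11.2 and 12.97 in WT replicates 1 to 4, so that every MGL KO library was below every WT library, as for 3.30% of all genes. Its log2 fold change was -0.64 (SE 0.19), the lowest of the 35 other immediate early genes tested, and did not pass the threshold (adjusted p = 0.478). Egr4, the remaining EGR gene, had 0 counts in 7 of the 8 libraries and 1 count in WT replicate 4.

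Mrtfb, the other MRTF cofactor of Srf, was at 48.8 to 55.7 normalized CPM in MGL KO and at 56.3 to 64.2 in WT libraries. Like Mrtfa, it did not overlap between the genotypes, with MGL KO lower, as for 3.30% of all genes. Its log2 fold change was -0.21 (SE 0.09, adjusted p = 0.550). Rxrb, a partner receptor of Nr4a1 and Nr4a2, was at 75.3 to 79.8 in MGL KO and 64.5 to 70.3 in WT libraries, and like Rxra it did not overlap between the genotypes, with MGL KO higher, as for 2.72% of all genes. Rxrb had a log2 fold change of 0.19 (SE 0.07, adjusted p = 0.550). Tagln, a smooth muscle gene, was at 0.36 to 1.11 normalized CPM, whereas Acta2 averaged 680.5 in MGL KO and 619.9 in WT esophagi.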
